A study of Fundulus heteroclitus with 6 samples.

Results

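The comparison described here set New Bedford Harbor (NBH) killifish embryos exposed to PCB-126 against NBH embryos exposed to the solvent DMSO. Its members were all isogroups with a combined count of at least 10 reads in the NBH libraries, and 3691 of 22732 isogroups met that minimum. An isogroup is a set of assembled contigs taken to come from 1 gene. In these 3691 isogroups, 437 were called higher and 414 were called lower in the PCB-126 library, at a difference of at least 2-fold. Each condition was 1 library, so these calls cover counting error only and compare libraries, not treatments. With a spread between libraries estimated from the whole set of libraries, no isogroup was called in either direction. The share called fell as the number of reads grew. Differences under 2-fold passed the test only where reads were many, since few reads cannot show them. Of the 78 isogroups with 300 reads or more, 2 were called higher and 1 was called lower. A further 27 of the 78 passed the same test with a difference under 2-fold.

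The study sequenced 10-dpf (days post-fertilization) embryos of the Atlantic killifish Fundulus heteroclitus in 4 libraries, from 2 populations with and without PCB-126. They came from NBH, the PCB-contaminated site, and Scorton Creek (SC), the reference site. The SC libraries enter here only where a level or a response in NBH is set beside them. The NBH DMSO group held 10-dpf offspring of wild-caught NBH adults treated with DMSO at 4 hpf (hours post-fertilization), and the NBH PCB-126 group held offspring of the same spawn treated with 50 nM PCB-126. The SC groups were treated alike and differed from the NBH groups by design in the parents' site of origin. The study reports that treated SC embryos began to show developmental delay and pericardial edema by the age sampled. The SC vehicle embryos and both NBH groups developed normally. The treated SC library thus also differs from the others in the state of its embryos. The part of that state in the SC ratios given below was not tested. DMSO was present in all 4 groups as the vehicle. Per the study's methods the exposure lasted 1 h, whereas the sample labels give 6 h, and a later exposure cannot be told apart from an early one in the counts. Eggs of 8 females per site were fertilized with the sperm of 5 males, and RNA from 3 pools of 20 whole embryos went into each library. Each population is thus 1 set of parents, and each condition is 1 library.

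PCB-126 is a dioxin-like polychlorinated biphenyl that binds the aryl hydrocarbon receptor (AHR), a transcription factor that is switched on by its ligands. With its partner ARNT the ligand-bound receptor raises transcription of target genes, among them the cytochrome P450 enzymes CYP1A and CYP1B1 and the AHR repressor, which acts back on the receptor. Killifish of NBH are known to be resistant to the embryotoxicity of such compounds and to the induction of CYP1A. The comparison within NBH asks how far transcript levels differ between treated and vehicle embryos of a resistant population. The deposited table pairs no isogroup with a gene name, and 0 isogroups could be matched to one. The members are therefore described by their counts and not by their function. Neither the AHR targets nor markers of the embryo's tissues could be looked up among them by name. The study's own probe search of these libraries found few or no CYP1A reads and no CYP1B1 reads in either NBH library. That search matched raw reads to extended probe sequences, whereas the counts used here are uniquely matching reads per isogroup. Its counts thus do not tell whether either gene reaches the minimum of reads for members. The same search gave CYP1A more reads in the treated SC library than any isogroup held there. Which isogroup holds either gene was not tested.

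The libraries summed to 95410 reads for NBH embryos with DMSO and 123644 reads for NBH embryos with PCB-126. The SC libraries held 124000 reads with DMSO and 132893 reads with PCB-126. The members held 79.5% of the DMSO reads and 79.2% of the PCB-126 reads in NBH. The 10 isogroups of most reads took 8.65% and 8.36% of these libraries, and the first 100 took 29.9% and 28.9%. Levels are given below as reads per 100000 reads of the library. A count of 0 allows up to 3 counts, which is 3.14 reads per 100000 with DMSO and 2.43 with PCB-126. All intervals and limits cover counting error only.

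At the level of detection, 7961 isogroups had reads in both NBH libraries. A further 5576 isogroups had reads only in the deeper PCB-126 library, 3914 had reads only in the DMSO library, and 5281 had reads in neither. When the PCB-126 library was thinned at random to the DMSO total, the corresponding numbers were 7527, 5084, 4348 and 5773. The larger number of isogroups seen only with PCB-126 thus remained, but narrowed, at equal depth. Most isogroups seen in 1 library were below the minimum of 10 reads, and 19041 isogroups were left out of the comparison for that reason.

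Each member's reads against the rest of its library were compared with Fisher's exact test, two-sided, with Benjamini-Hochberg adjustment over the 3691 isogroups. An isogroup was called when the adjusted p was under 0.05 and the levels differed at least 2-fold in either direction. Ratios below are the level with PCB-126 over the level with DMSO. The 437 isogroups called higher with PCB-126 were 11.8% of those tested, and the 414 called lower were 11.2%. A further 75 isogroups passed the adjusted p with a difference under 2-fold. The median ratio over all members was 1.07. The order of both counts was not stable. With the PCB-126 library thinned to the DMSO total, 283 isogroups were called higher and 324 lower, and with no minimum of reads 234 were called higher and 377 lower. There are no replicate libraries, so the test compares these 2 libraries and not the treatments, and the variation between clutches or pools of embryos is not in its p-values. A spread was also estimated by edgeR from all 4 libraries, as what population and treatment leave over. It was 1 common value, fitted over 7149 isogroups and applied to all members whatever their reads. Unlike responses of NBH and SC enter it, so it does not measure that variation alone. With it no isogroup was called in either direction, as given in full in the closing section. The embryos were sequenced whole, and fewer cells of a type and less RNA per cell cannot be told apart.

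**Figure D1:**
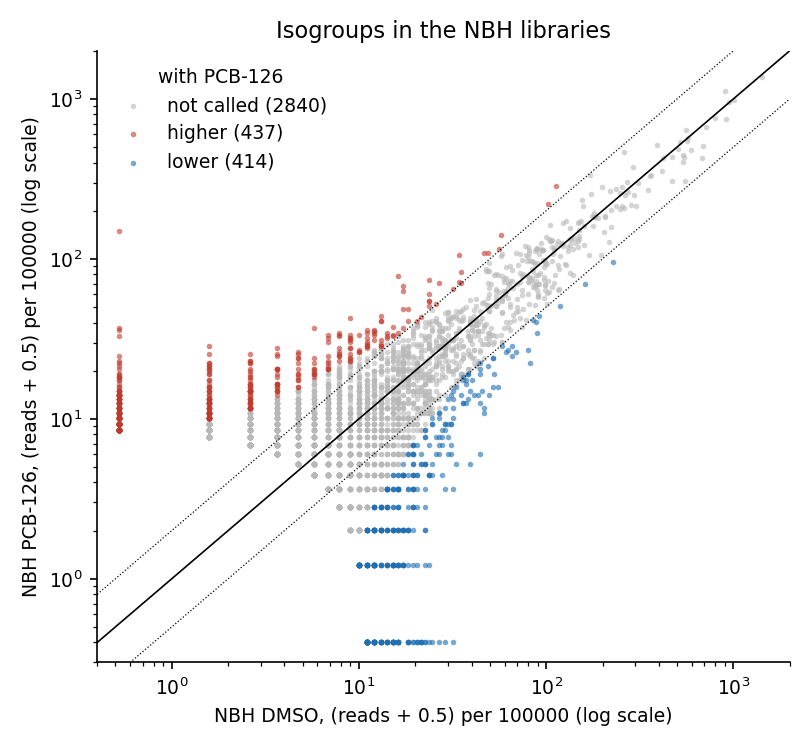
Reads per 100000 in the NBH PCB-126 library against the NBH DMSO library for the 3691 members, with 0.5 reads added to each count and both axes on a log scale. The solid line marks equal levels and the dotted lines a ratio of 2 in either direction, and called isogroups (437 red, 414 blue) lie mostly at low levels, with the columns at the left and the row at the bottom holding isogroups without reads in 1 library.

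The calls depended on the reads behind an isogroup. In the class of 10 to 19 reads, 2040 isogroups were tested, 245 were called higher and 260 lower, which is 24.8% called. In the class of 20 to 49 reads the share called was 24.3% of 1051 isogroups, with 144 higher and 111 lower. It was 21.3% of 315 isogroups with 50 to 99 reads, 10.1% of 207 with 100 reads or more but under 300, and 3.85% of 78 with 300 reads or more. The abundant end of the transcriptome therefore held few differences of 2-fold or more between the treated and the vehicle library. Isogroups that passed the adjusted p with a difference under 2-fold numbered 0, 0, 11, 37 and 27 in these classes. The SC pair of libraries gave nearly the same shares called, 25.1%, 23.8%, 19.9%, 10.4% and 3.06% in the same classes. In SC 4135 isogroups were tested, of which 495 (12.0%) were called higher with PCB-126 and 450 (10.9%) lower. The shares called by Fisher's exact test with the 2-fold minimum were thus alike in both pairs. With 300 reads or more, 50 of 98 isogroups in SC and 27 of 78 in NBH passed the adjusted p with a difference under 2-fold. The SC libraries were deeper, and the difference between these counts was not tested. These calls cover counting error only, and no SC calls with the spread estimated by edgeR are given here. They do not show that embryos of both populations responded as broadly. On replicated arrays of the same stage, the study found more genes altered by the treatment in SC than in NBH embryos.

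What the counts could show at each depth also differed. An isogroup with 10 reads in the pair was called higher only when all 10 were in the PCB-126 library, and called lower with at most 1 read there and 9 or more in the DMSO library. With 20 reads, a division of 17 to 3 was needed for a call higher (ratio 4.37) and of 5 to 15 for a call lower (ratio 0.257). With 50 reads the smallest ratio called higher was 2.44, and with 100 reads it was 2.09. Smaller differences were not detectable in isogroups of few reads. The exact 95% Clopper-Pearson interval of the ratio lay within 0.5 to 2 for 296 members, or 8.02%, which bounds their difference between the libraries below 2-fold. None of the isogroups with 10 to 19 reads was so bounded, but 65.7% of those with 100 reads or more but under 300 and 89.7% of those with 300 or more were.

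The ratios were spread more widely than counting error alone gives. From the 10th to the 90th percentile, the ratio ran from 0.140 to 10.0 in the lowest class, where counting error at the class's median of 13 reads gives 0.482 to 2.57. In the class of 50 to 99 reads it ran from 0.493 to 2.06, against 0.748 to 1.41 from counting error. In the class of 300 reads or more it ran from 0.724 to 1.37, against 0.894 to 1.12. Differences beyond counting error were thus present at every depth, but those of abundant isogroups were mostly small. Whether the added spread comes from the treatment or from variation between pools of embryos or library preparations cannot be told apart with 1 library a condition.

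**Figure D2:**
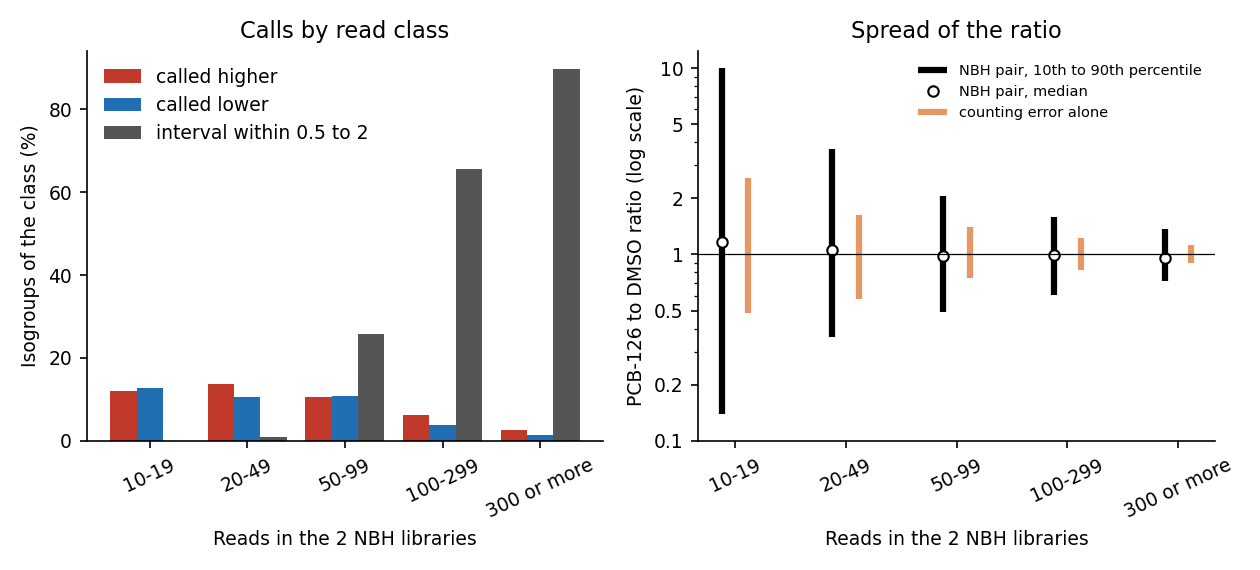
Left, the share of isogroups (%) called higher, called lower, or with an interval of the ratio within 0.5 to 2, by the reads in the 2 NBH libraries. Right, the PCB-126 to DMSO ratio on a log scale, as the 10th to 90th percentile (black) and median (open circle) of the NBH pair beside the same percentiles from counting error at the class's median reads (orange), which are narrower in every class.

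The isogroups called higher held 1774 reads with DMSO and 10913 with PCB-126, a share of the library of 1.86% against 8.83%. Those called lower held 8173 reads with DMSO and 2319 with PCB-126, a share of 8.57% against 1.88%. The 2840 isogroups that were not called held 69.1% and 68.5%. These shares follow from the choice of the isogroups in the same libraries and are given as a description. In the SC libraries, which took no part in the choice, the isogroups called higher in NBH held 4.13% with DMSO and 3.82% with PCB-126, and those called lower held 3.15% and 3.16%. As sums, neither group of isogroups differed in SC embryos in the direction it did in NBH embryos.

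Among the called isogroups, the largest difference upward in reads per 100000 was in isogroup12791. Some abundant isogroups that were not called, because their ratio was under 2-fold, differed by more reads in either direction. It had 107 reads in NBH embryos with DMSO and 353 with PCB-126, and 139 and 123 reads in SC embryos with DMSO and PCB-126. In reads per 100000 these are 112 and 285 in NBH and 112 and 92.6 in SC, so that the treated NBH library stood above 3 libraries of like level. The ratio in NBH was 2.55 (95% interval 2.05 to 3.19, adjusted p = 2.13e-16 by Fisher's exact test). In SC the ratio was 0.826 (0.642 to 1.06, adjusted p = 0.255 by Fisher's exact test). Whether NBH and SC had the same ratio was asked of the 4 counts by an exact conditional test, and for isogroup12791 the ratios differed at an adjusted p of 3.98e-09. That test uses again the NBH counts by which the isogroup was chosen. With the variation estimated by edgeR the adjusted p of isogroup12791 in NBH was 1.00. That estimate is 1 value for all isogroups, so it does not set isogroup12791 beside isogroups of like reads.

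The second, isogroup22580, had no reads with DMSO and 185 reads, or 150 per 100000, with PCB-126 in NBH embryos. It had no reads in either SC library. With 3 counts taken as the floor for DMSO, its observed level with PCB-126 was 47.6 times that floor. The lower limit of the exact interval of the ratio, which also covers the error of the 185 reads, was 38.3 (adjusted p = 4.22e-43 by Fisher's exact test). An isogroup with 185 reads in 1 library and none in the other 3 stood far from the rest, since the next highest count among isogroups without DMSO reads was 45. It had the smallest adjusted p by edgeR with the estimated variation, 0.0715, which did not pass. The response could not be set beside that of SC, where both counts were 0.

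The remaining isogroups of the 10 largest differences upward among those called, described by their values, fell into several patterns across the 4 libraries. In one pattern the DMSO library of NBH was the low one. The tenth had 22 reads in the DMSO library and 91 in the PCB-126 library of NBH, or 23.1 and 73.6 per 100000, and 87.1 and 77.5 per 100000 in SC. The treated NBH level lay near both SC levels and the vehicle NBH level lay below them, with a ratio in NBH of 3.19 (1.99 to 5.34). The fourth had counts of 54 and 173 in NBH, or 56.6 and 140 per 100000, against 106 and 109 in SC, so that the NBH libraries lay on either side of the SC libraries. The fifth lay likewise on either side, with 33.5 and 106 per 100000 in NBH against 74.2 and 65.5 in SC, and a ratio in NBH of 3.16 (2.13 to 4.81).

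In another pattern the SC embryos differed in the opposite direction. The seventh had 15 reads in the DMSO library and 96 in the PCB-126 library of NBH, and 154 and 20 in SC. Its ratio was 4.94 in NBH (2.85 to 9.17) and 0.121 in SC (0.0720 to 0.194), and the exact test of the difference of response gave an adjusted p of 5.98e-31. The eighth had 46 and 135 reads in NBH and 349 and 100 in SC, with ratios of 2.26 and 0.267 and an adjusted p of 1.55e-25 in the same exact test. The sixth had 44 and 134 reads in NBH and 112 and 78 in SC, with ratios of 2.35 (1.66 to 3.38) and 0.650 (0.480 to 0.875), and an adjusted p of 2.73e-06 by that exact test. In the seventh and the eighth the SC DMSO library held the highest of the 4 levels, 124 and 281 per 100000, and the treated NBH library the second highest. The exact tests of these isogroups use again the NBH counts by which they were chosen. They compare single libraries and cover counting error only. With the variation estimated by edgeR none of these isogroups passed in NBH.

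A shared direction was seen in the third and the ninth. The third had 97 reads in the DMSO library and 272 in the PCB-126 library of NBH and 188 and 280 in SC, with ratios of 2.16 (1.71 to 2.76) and 1.39 (1.15 to 1.68), and the test of the difference missed the threshold (adjusted p = 0.0593, exact conditional test). The ninth had 53 and 143 reads in NBH and 47 and 121 in SC, with ratios of 2.08 (1.51 to 2.91) and 2.40 (1.70 to 3.44). It was called higher in both pairs. Just outside the 10 largest among those called, another isogroup had 16 and 83 reads in NBH and 19 and 79 in SC, with intervals of the ratio of 2.33 to 7.33 and 2.33 to 6.78. In these last 2 isogroups the levels of each treatment lay close together in both populations, at 55.5 and 37.9 per 100000 with DMSO and 116 and 91.1 with PCB-126 in the first, and at 16.8 and 15.3 with DMSO and 67.1 and 59.4 with PCB-126 in the second.

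Among the isogroups called lower, isogroup00385 had the largest difference. It had 216 reads in the DMSO library and 117 in the PCB-126 library of NBH embryos, or 226 and 94.6 per 100000, and 155 and 214 reads in SC embryos, or 125 and 161 per 100000. The NBH DMSO library was the highest and the NBH PCB-126 library the lowest of the 4. The level in treated NBH embryos was 2.39-fold lower (95% interval 1.90 to 3.02, adjusted p = 3.71e-12 by Fisher's exact test). In SC the ratio was 1.29 (1.04 to 1.59, adjusted p = 0.0612 by Fisher's exact test), and the ratios of the 2 pairs of libraries differed (adjusted p = 1.92e-10, exact conditional test).

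The second of the isogroups called lower, isogroup00129, showed the same order. Its counts were 154 with DMSO and 86 with PCB-126 in NBH, or 161 and 69.6 per 100000, and 126 and 168 in SC, or 102 and 126 per 100000. The level in treated NBH embryos was 2.32-fold lower (1.77 to 3.06, adjusted p = 4.36e-08 by Fisher's exact test), and the ratios of the 2 pairs differed (adjusted p = 9.62e-07, exact conditional test). Both isogroups had an adjusted p of 1.00 by edgeR with the estimated variation, which again is 1 value for isogroups of every depth.

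The other isogroups of the 10 largest differences among those called lower had levels of 68.1 to 118 per 100000 with DMSO and 21.8 to 50.1 with PCB-126. The steepest, the fourth, had 78 reads in the DMSO library and 27 in the PCB-126 library of NBH, a level 3.74-fold lower (2.39 to 6.03), and 44 and 52 reads in SC. The third had 113 and 62 reads in NBH and 67 and 110 in SC, with ratios of 0.423 and 1.53, so that its direction was opposite in SC. The tenth had 65 and 32 reads in NBH and 102 and 62 in SC, with ratios of 0.380 (0.241 to 0.589) and 0.567 (0.407 to 0.785), and was lower with PCB-126 in both populations. For 9 of the 10 largest differences among the isogroups called lower, the NBH DMSO library held the highest of the 4 levels, and for 8 the NBH PCB-126 library held the lowest. For 7 of the 10 largest among those called higher, the NBH PCB-126 library was the highest, and for 6 the NBH DMSO library was the lowest. Among isogroups not called, the NBH PCB-126 level was the highest in 33.1% and the lowest in 14.1%. The NBH DMSO level was the highest in 28.6% of these and the lowest in 18.8%. The ratio in the NBH libraries differed from that in the SC libraries for 7 isogroups in each direction by the exact conditional test. Over all 7149 isogroups tested it was higher in NBH in 2.85% and lower in 3.25%. The 10 largest in each direction were chosen by the same NBH counts, so their numbers and the p-values of their exact conditional tests are a description.

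**Figure D3:**
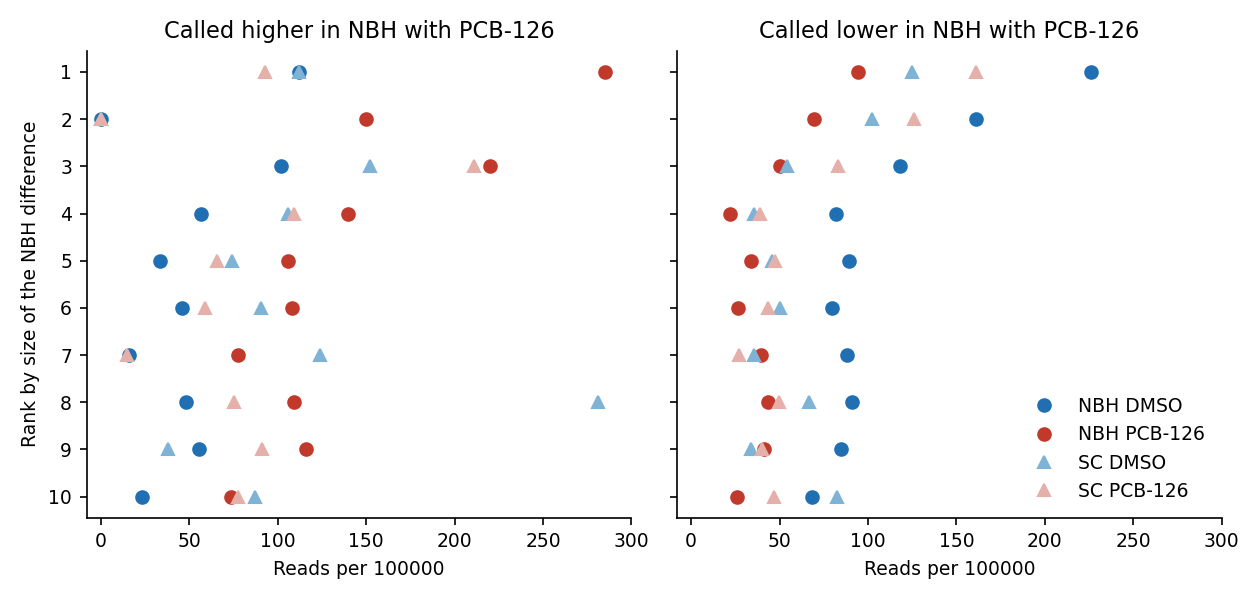
Reads per 100000 in each of the 4 libraries for the 10 isogroups with the largest differences called higher (left) and lower (right) in NBH with PCB-126, ranked by the size of the difference. Circles are NBH libraries and triangles SC libraries, blue is DMSO and red is PCB-126, each point is 1 library, and on the right the NBH DMSO library is the highest point in 9 of 10 isogroups.

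The most abundant isogroups differed little. Among the 20 with the most reads in the NBH pair, ratios ran from 0.630 to 1.32, none was called, and all 20 had intervals within 0.5 to 2. Of these, 9 passed the adjusted p, 2 of them higher and 7 lower with PCB-126, at ratios under 2-fold. The most abundant isogroup had 1356 reads in the DMSO library and 1698 in the PCB-126 library, or 1421.2 and 1373.3 per 100000, a ratio of 0.966 (0.899 to 1.04, adjusted p = 0.540 by Fisher's exact test). Another of the 20 had 864 and 1384 reads and a ratio of 1.24 (1.13 to 1.35), and in SC its ratio was 0.850 (0.784 to 0.922).

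Abundant isogroups also allow the closest look at the difference between the populations, since counting error is small there. In 72 isogroups with 300 reads or more in each pair, 27 passed the adjusted p in NBH, 10 higher and 17 lower with PCB-126, and 42 passed it in SC, 17 higher and 25 lower. The SC libraries were deeper, and with all 4 libraries thinned to the smallest total the counts were 27 in NBH and 35 in SC. The difference between these counts was not tested. The ratio ran from 0.713 to 1.32 in NBH and from 0.664 to 1.56 in SC between the 10th and 90th percentiles. The ratios of the NBH and the SC libraries differed in 22 of the 72 isogroups, or 30.6%, by the exact conditional test. In 9 of these the ratio in NBH lay farther from 1, and in 13 that in SC. These tests compare 4 single libraries, and variation between pools of embryos is not in their p-values. At a minimum of 100 reads in each pair, 263 isogroups were compared, and 80 passed the adjusted p in NBH and 94 in SC. The ratios differed in 58, or 22.1%, with NBH farther from 1 in 27 and SC in 31. This minimum and the thinned counts were chosen after the data had been seen.

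**Figure D4:**
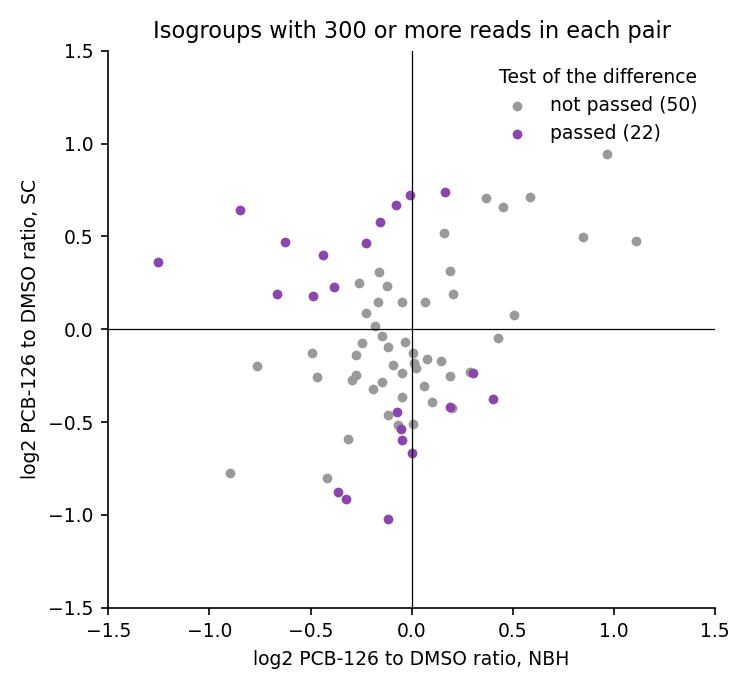
Log2 of the PCB-126 to DMSO ratio in SC against that in NBH for the 72 isogroups with at least 300 reads in each pair. Each point is 1 isogroup, purple where the ratios differed by the exact conditional test (22) and grey where they did not (50). Both axes have the same scale, and purple points lie near an axis or away from both, some with opposite directions in NBH and SC.

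The PCB-126 to DMSO ratio of the NBH libraries was tested against that of the SC libraries by the exact conditional test. This was done over the 7149 isogroups whose counts in all 4 libraries summed to 10 or more. In 204 of these (2.85%) the ratio was higher in NBH and in 232 (3.25%) it was lower in NBH. Among the 3691 members of the NBH comparison, the ratio was higher in NBH for 169 (4.58%) and lower for 180 (4.88%). Members have at least 10 reads in the NBH pair alone, so these shares are not at like depth with those over all isogroups tested. Of the 437 isogroups called higher in NBH, 92 (21.1%) had a ratio above that of SC by this test. Of the 414 called lower, 90 (21.7%) had a ratio below it. The calls in NBH used the same NBH counts, so these shares are a description. For most called isogroups the difference of ratios did not pass the test, which at these depths does not show that the ratios were alike. The test covers counting error in 4 single libraries. A difference of response between the populations beyond the variation of libraries was not tested.

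The SC pair shares no library with the NBH pair, so its ratios can be read for the isogroups called in NBH. Of the 437 isogroups called higher in NBH, 220 had the 10 reads needed in SC. Their ratio in SC was above 1 for 111 and below 1 for 109, with a median log2 ratio of 0.00 (10th to 90th percentile -1.46 to 1.45). In SC 20 of them (9.09%) were called higher and 24 (10.9%) lower, where over all 2471 members tested in SC 8.30% were called higher and 8.05% lower. Of the 414 called lower in NBH, 199 were tested in SC, with 109 above 1 and 90 below, and a median log2 ratio of 0.15. In SC 24 of these (12.1%) were called higher and 17 (8.54%) lower. A difference seen in NBH embryos was therefore paired with either direction in SC embryos, and the overlap of the calls was not tested.

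The isogroups without reads in 1 NBH library were the extreme of the comparison. There were 186 with no DMSO reads and at least 10 PCB-126 reads, and 106 with no PCB-126 reads and at least 10 DMSO reads, and all of them were called. That outcome was fixed, since any such split is called at the minimum of 10 reads. The first had a median of 12 reads and 17 of them had 20 or more. The second also had a median of 12 reads and reached 30, and 11 had 20 or more. At equal depth the order turned, with 102 isogroups without DMSO reads and 125 without PCB-126 reads. Of the 186, 87 had reads in both SC libraries and 57 had reads in neither. Of the 106, 28 had reads in both SC libraries and 48 in neither. At least 10 reads in the SC pair were present for 37 of the 186 and 10 of the 106, and for 2471 of all 3691 members. These isogroups passed the minimum through 1 NBH library only, so their SC counts are a description. Except for isogroup22580, counts in the library with reads reached at most 45 for the first group, so that a level of 0 in the other library bounds these differences only loosely, at a floor of 3 counts.

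The levels of the NBH libraries were also set beside those of the SC libraries. For the isogroups called higher, the NBH PCB-126 level lay above all other 3 libraries in 387 (88.6%) and the NBH DMSO level lay below all other 3 in 242 (55.4%). For those called lower, the NBH DMSO level lay above all other 3 in 385 (93.0%) and the NBH PCB-126 level below all other 3 in 166 (40.1%). Of the isogroups not called, the NBH PCB-126 level was the highest in 33.1% and the NBH DMSO level in 28.6%. The NBH PCB-126 level was the lowest in 14.1% of them and the NBH DMSO level in 18.8%. The isogroups were chosen for an NBH pair that lies far apart, and most had few reads. These shares thus follow in part from the choice. They are given as a description and cannot show which library of the pair stood apart. The library nearer to the mean of the SC libraries was the DMSO library for 65.4% of the isogroups called higher. It was the PCB-126 library for 76.1% of those called lower. Among those not called it was the DMSO library for 50.4% and the PCB-126 library for 49.6%.

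The minimum of 10 reads in the NBH pair bears on these shares, since an isogroup of few reads could pass it only through the library where it is high. Among isogroups with 50 or more reads, where the minimum matters less, the NBH PCB-126 level was the highest of the 4 in 77.1% of 48 called higher, and the NBH DMSO level was the lowest in 60.4%. For the 43 called lower, the NBH DMSO level was the highest in 88.4% and the NBH PCB-126 level the lowest in 55.8%. The DMSO library was then nearer to SC in 54.2% of those called higher, and the PCB-126 library in 62.8% of those called lower. Among the 509 not called at this depth, the NBH PCB-126 level was the highest in 24.2% and the lowest in 22.2%. The NBH DMSO level was the highest in 30.3% of the 509 and the lowest in 19.3%. The DMSO library was nearer to SC in 51.3% of the 509 and the PCB-126 library in 48.7%. The call itself still selected isogroups whose NBH levels lie far apart, so these shares too are a description with no test.

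**Figure D5:**
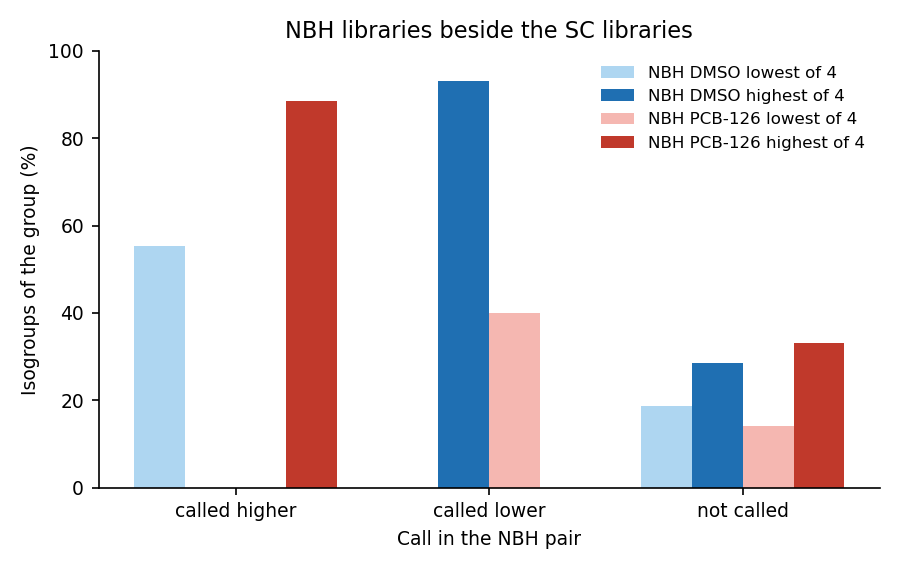
Share of isogroups (%) in which an NBH library held the highest or the lowest level of the 4 libraries, for the 437 called higher, the 414 called lower and the 2840 not called in the NBH pair. Blue bars are the NBH DMSO library and red bars the NBH PCB-126 library, and the tallest bars are the PCB-126 library as the highest (88.6%) in the first group and the DMSO library as the highest (93.0%) in the second.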

How the data were processed

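The authors deposited 1 table of counts, whole numbers of uniquely matching reads per isogroup from 3'-anchored, non-normalized cDNA libraries sequenced by pyrosequencing, with 7 blank cells read here as 0. The sources used here do not give the program that matched the reads. The shotgun libraries of untreated embryos were not used here. Library sizes were column sums (95410 to 132893 reads). Fisher's exact test was two-sided, with exact 95% Clopper-Pearson intervals of ratios. The PCB-126 to DMSO ratios of the NBH and SC libraries were compared with Fisher's noncentral hypergeometric distribution. Benjamini-Hochberg adjustment was over 7149 isogroups. Log2 ratios used 0.5 added reads. The scripts were tested on simulated data. Alternatives were library sizes from TMM, from DESeq2 or without the 10 most abundant isogroups, other minimum reads and ratios, thinned libraries, and exact tests by edgeR. The isogroups, lists and comparisons were chosen with earlier results of these data known. The rule for named isogroups took the 2 called isogroups with the largest difference of reads per 100000 in each direction, and the others of the 10 largest were described without ID. Isogroups singled out besides these (1 of shared response, and those of most reads) were chosen after their values were seen. Software was edgeR 4.0.16 and DESeq2 1.42.0 in R 4.3.3, and scipy 1.17.1, numpy 2.4.6, matplotlib 3.10.9 and pandas 2.3.3 in Python 3.11.15.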

Additional observations from a re-analysis of the deposited data

Results flagged for a closer look

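By the exact conditional test of the 4 counts, 169 members (4.58%) had a higher ratio of treated to vehicle reads in the NBH libraries than in the SC libraries, and 180 (4.88%) had a lower one. Over all 7149 isogroups tested the shares were 2.85% and 3.25%. The test covers counting error in 4 single libraries, and a difference between the populations beyond the variation of libraries was not tested. Nor was the part in these ratios of the delay and edema reported for treated SC embryos. Among the named isogroups the test of the difference gave an adjusted p of 3.98e-09 for isogroup12791, with a ratio of 2.55 in NBH and 0.826 in SC, and of 1.92e-10 for isogroup00385 and 9.62e-07 for isogroup00129, both lower with PCB-126 in NBH and at ratios of 1.29 and 1.24 in SC (exact conditional tests). The named isogroups were chosen by the same NBH counts, so these p-values are a description. No group had enough libraries to be tested for an outlying sample.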

How the results depend on the processing

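Of 40 alternatives for the counts of isogroups, 32 stayed within 1.5 times the reported value and 8 did not. With no minimum of reads 234 isogroups were called higher, and with at least 30 reads 116 were called higher and 88 lower. With the PCB-126 library thinned to the DMSO total 283 were called higher. An exact test by edgeR with variation estimated over the 4 libraries (a biological coefficient of variation of 56.7%) called 0 higher and 0 lower, with 173 and 136 at an unadjusted p under 0.05 and a smallest adjusted p of 0.0715. At a coefficient of variation set to 0.4 it called 1 higher and 0 lower, with 309 and 231 at an unadjusted p under 0.05. The estimate over the 4 libraries is 1 value for isogroups of every depth, although the ratios spread less in abundant ones. It is what population and treatment leave over, so unlike responses of NBH and SC enter it. With 1 library a condition these cannot be split from variation between pools. For the named isogroups, 30 of 40 alternatives kept the call, and the other 10, under a minimum ratio of 4 or the tests by edgeR, lost it with the direction kept. Other library sizes shifted the log2 ratio by at most 0.03. No paired analysis was possible because each condition is 1 library. The main limits are the lack of replicates, the few reads of most isogroups, the unknown gene names, and libraries of unequal depth, for which thinning turned the order of the calls higher and lower.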
